A study of Mus musculus with 6 samples.

Results

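The Notch pathway was examined in cultured cardiac fibroblasts (CFs) through 10 of its genes: the receptors *Notch1*, *Notch2*, *Notch3* and *Notch4*, the ligands *Jag1* and *Dll1*, and the target genes *Hes1*, *Hey1*, *Hey2* and *Heyl*. The 10 were chosen by name, as the rows of the expression table carrying these symbols, out of 19446 genes in all. RNA-seq was compared between 3 wild type (WT) and 3 CharmeKO libraries of CFs, which the study had grown out of cardiac explants of 5-week-old C57BL/6J mice. CharmeKO mice carry a polyadenylation signal inserted into the locus of *Charme*, a long non-coding RNA of cardiac muscle. According to the study's methods, an explant culture was started from the atrial tissue of several littermates, whose age range included that of the labels, and the cells were cultured in serum-containing medium and used at an early passage. Which animals stand behind a library is not given in the sources used here.

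Notch receptors are single-pass membrane proteins that are activated by ligands of the Jagged and Delta families on a neighbouring cell. Ligand binding exposes the receptor to an ADAM protease and then to gamma-secretase, which frees the intracellular domain to enter the nucleus. There it joins the DNA-binding protein RBPJ and a Mastermind coactivator, and turns on genes of the Hes and Hey families, which encode transcriptional repressors. In the heart the pathway is known for its part in valve and trabecular development and in the crosstalk of endothelial, mural and stromal cells.

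The values are normalised reads, in which each library's gene counts were scaled by its own size factor. The libraries held 38330019 to 46797446 reads assigned to genes, and 1 read was worth 0.870 to 1.10 normalised reads. A gene at 0 reads could lie at up to 3 reads, or 2.61 to 3.30 normalised reads depending on the library, which covers counting error only. The feature taken as *Charme*, which is an inference from its identifier, was rare in both groups, with 5, 15 and 11 reads in WT and 0, 6 and 3 in CharmeKO, so that it checks the genotype only weakly. The 10 fibroblast markers were all present, with summed levels of 1075130 to 2191840 normalised reads in WT and 1434870 to 1739820 in CharmeKO. Libraries with the same number in the labels tended to deviate from their group means together, least clearly for number 3, and these numbers are treated as pairs below. In bulk libraries such as these, fewer cells of a type and less RNA per cell cannot be told apart.

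The receptors were compared first by level per length (RPKM, reads scaled to the length of the merged exons and to the assigned reads of the library). *Notch2* was the most abundant receptor gene and *Notch3* the next in all 6 libraries. *Notch2*, a receptor of many stromal cells, lay at 16.2 RPKM (range 13.8 to 19.7, n = 6) and took 66.0 ± 6.91% of the summed receptor RPKM in WT and 64.1 ± 8.48% in CharmeKO (SD, n = 3 each). *Notch3*, best known as the receptor of vascular smooth muscle cells and pericytes, lay at 7.27 RPKM (3.47 to 12.6) and took 26.2 ± 9.45% in WT and 28.5 ± 8.74% in CharmeKO. *Notch1*, the receptor with the widest roles in development, lay at 1.51 RPKM (1.02 to 2.67) and took 5.69 ± 1.65% and 6.29 ± 2.38%. *Notch4*, a receptor gene known mainly from endothelium, lay at 0.387 RPKM (0.135 to 0.867) and took 2.14 ± 1.22% and 1.11 ± 1.01%.

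**Figure D1:**
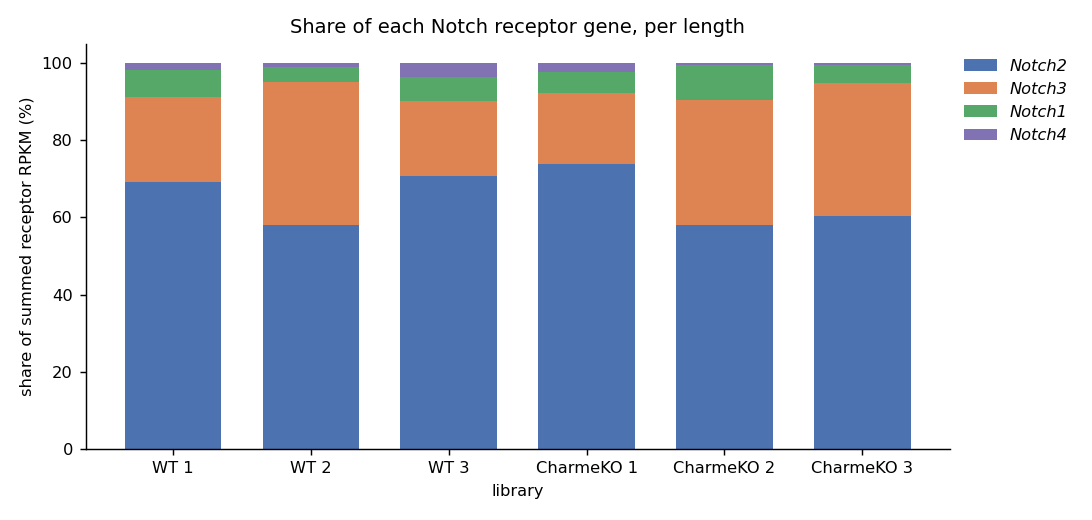
Share of each Notch receptor gene in the summed receptor RPKM (y axis, %) in each of the 6 libraries (x axis). *Notch2* takes 58.1 to 73.8% and *Notch3* 18.5 to 37.0% in every library, so that both genotypes show the same order of the upper pair.

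*Notch2* was the steadiest of the 10 genes. It had 6367, 8709 and 8030 normalised reads in WT 1, 2 and 3 and 6400, 7291 and 6577 in CharmeKO 1, 2 and 3. The highest library was 1.37 times the lowest, all 3 CharmeKO libraries lay within the WT range, and its SD over the 6 libraries stood at percentile 15.1 of all tested genes. The log2 fold change was -0.18 (SE 0.178), so the difference was about the size of its own limma SE.

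*Notch3* followed the library number more than the genotype. It had 1513, 4166 and 1672 normalised reads in WT 1, 2 and 3 and 1206, 3055 and 2834 in CharmeKO. The libraries numbered 2 were the highest of their group in both genotypes and those numbered 1 the lowest, and the groups overlapped throughout. The log2 fold change was -0.0047 (SE 0.512). The log2 ratio of *Notch3* to *Notch2* within each library was -1.80 ± 0.645 in WT and -1.63 ± 0.677 in CharmeKO (SD, n = 3 each), a difference of 0.17 by CharmeKO minus WT (two-sided exact permutation p = 1, where 0.1 is the smallest that 3 against 3 libraries allow).

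*Notch1* had 854, 761 and 928 normalised reads in WT and 621, 1488 and 643 in CharmeKO 1, 2 and 3. CharmeKO 2 stood above every other library and the remaining pair of CharmeKO libraries below all of WT, which gave nearly equal group means of 848 ± 83.7 and 917 ± 494. The log2 fold change of -0.0076 (SE 0.362) changed sign when single libraries were left out and under other scalings.

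*Notch4* was the receptor gene with the widest difference between the genotypes. It had 127, 122 and 296 normalised reads in WT 1, 2 and 3 and 148, 48.2 and 44.4 in CharmeKO. CharmeKO 2 and 3 were lower than all WT libraries, whereas CharmeKO 1 was higher than WT 1 and WT 2, so the groups overlapped. The log2 fold change was -1.27 (SE 0.611, limma adjusted p = 0.9999), and it stayed negative, between -1.82 and -0.86, when each library was left out in turn. The same-numbered differences ran from 0.22 for pair 1 to -1.32 and -2.71 for pairs 2 and 3.

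Of the ligand genes, *Jag1* was the more abundant by far. It encodes Jagged1, a ligand made by endothelial, smooth muscle and many stromal cells, and lay at 10.3 RPKM (2.28 to 23.7, n = 6), above *Notch3* in 4 of 6 libraries. *Jag1* had 5881, 1271 and 1357 normalised reads in WT 1, 2 and 3 and 4023, 521 and 2044 in CharmeKO. The libraries numbered 1 were the highest of both groups, with a mean of 4952 against 896 for number 2 and 1700 for number 3, and the groups overlapped. Its log2 fold change was -0.41 (SE 0.891).

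*Dll1*, which encodes a Delta-like ligand, lay at 0.296 RPKM (0.0714 to 0.875), below *Notch4* in 4 of 6 libraries. It had 12.8, 74.7 and 28.6 normalised reads in WT 1, 2 and 3 and 19.2, 144.5 and 22.6 in CharmeKO. Here the libraries numbered 2 were the highest of both groups, in which *Jag1* was lowest. The log2 fold change was 0.39 (SE 0.979) and the groups overlapped.

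**Figure D2:**
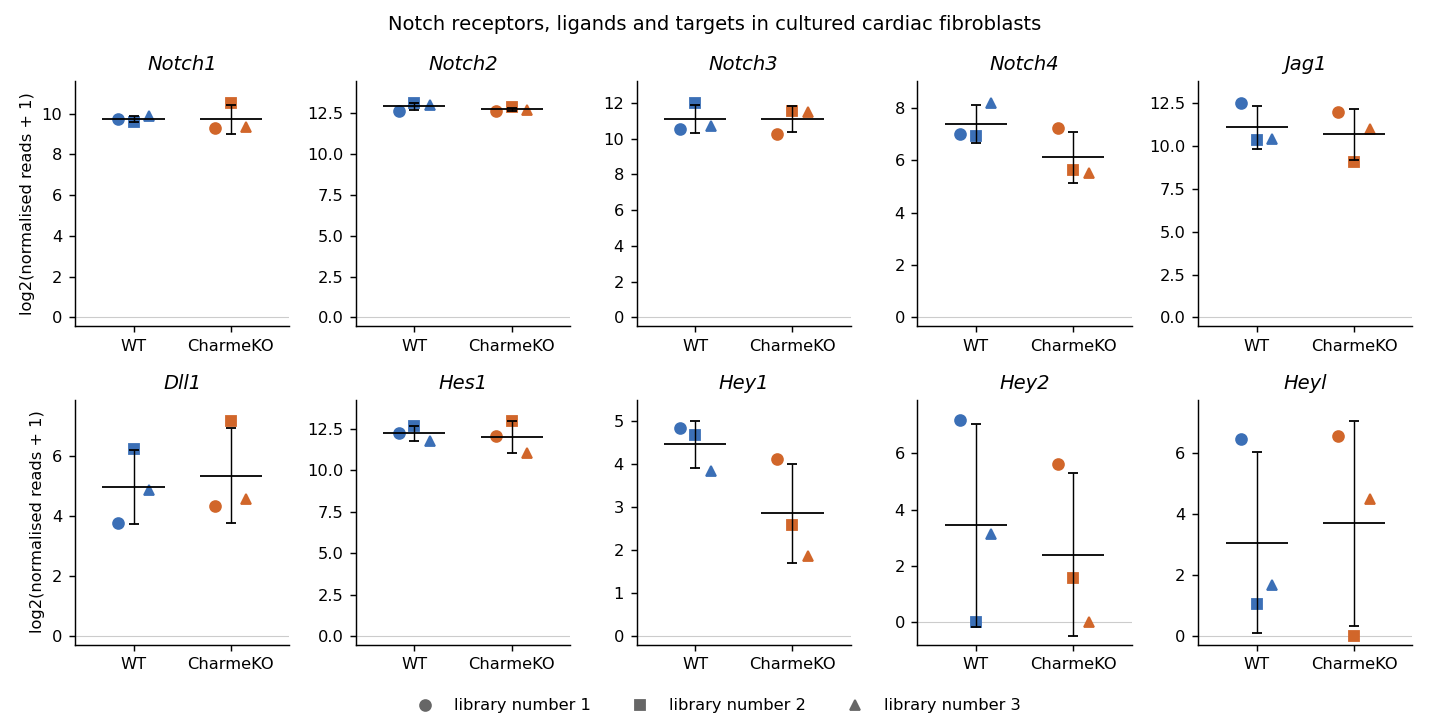
Level of each of the 10 genes as log2(normalised reads + 1) (y axis) in WT and CharmeKO libraries (x axis), with the marker shape giving the library number, horizontal lines the group means and error bars the SD (n = 3). In *Jag1*, *Hey2* and *Heyl* the libraries numbered 1 are the highest of both groups, in *Notch3*, *Dll1* and *Hes1* those numbered 2, and in none of the 10 panels do the groups separate.

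Among the targets, *Hes1* was the most abundant of the 10 genes in every library, at 58.4 RPKM (25.7 to 100.1, n = 6). HES1 is a basic helix-loop-helix repressor that acts downstream of Notch and of other signals. *Hes1* had 4798, 6682 and 3458 normalised reads in WT 1, 2 and 3 and 4273, 7982 and 2133 in CharmeKO. In both genotypes the order was number 2, then 1, then 3, and the log2 fold change was -0.20 (SE 0.497).

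The Hey genes, which encode repressors related to HES1, were all rare. *Hey2* lay at 0.173 RPKM, *Heyl* at 0.160 and *Hey1* at 0.109 (means over 6 libraries), and their order differed between libraries, *Hey2* being above *Heyl* in 3 of 6 and *Heyl* above *Hey1* in 3 of 6. *Hey1* had 27.6, 24.6 and 13.2 normalised reads in WT 1, 2 and 3 and 16.3, 4.92 and 2.61 in CharmeKO, which are 28, 23 and 12 reads against 17, 5 and 3. Only CharmeKO 1 overlapped WT, being above WT 3. *Hey1* was the only one of the 10 genes lower in CharmeKO in each of the 3 pairs (by -0.72, -2.11 and -1.97 on the log2 scale), a pattern that 14.0% of the 15948 tested genes showed. Its log2 fold change was -1.60 (SE 0.742, limma adjusted p = 0.9999). With the library number as a block in limma, the unadjusted p was 0.0276, which is under 0.05 as for 5.37% of tested genes, and the adjusted p was 0.7997.

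*Hey2* and *Heyl* were detected mostly in the libraries numbered 1. *Hey2* had 144.8, 0 and 7.69 normalised reads in WT 1, 2 and 3 and 48.1, 1.97 and 0 in CharmeKO. *Heyl* had 88.6, 1.07 and 2.20 in WT and 95.2, 0 and 21.7 in CharmeKO. For *Hey2* both libraries numbered 1 exceeded all others, and the remaining 4 held at most 7 reads, so that the gene passed the filter on low reads only through these 2 libraries. For *Heyl* the same 2 libraries were highest, followed by CharmeKO 3. The log2 fold changes were -1.04 (SE 2.15) for *Hey2* and 0.63 (SE 2.08) for *Heyl*, with errors larger than the differences. The summed mesothelial and epicardial markers were highest in the same libraries, at 9891 normalised reads in WT 1 and 10053 in CharmeKO 1 against 707 to 2520 in the other 4. This sum was carried by *Upk3b*, *Upk1b* and *Msln*, each highest of both groups in the libraries numbered 1. The epicardial factor *Wt1* ran differently, with 213, 1011 and 711 normalised reads in WT 1, 2 and 3 and 301, 1500 and 217 in CharmeKO, and *Krt18* and *Krt19* were highest in WT 3 among WT. The summed macrophage markers were also highest in the libraries numbered 1, at 3321 and 5003, and the part of either in the *Hey2* and *Heyl* levels was not tested.

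RefSeq promoter windows of GRCm38.p6, from 250 bases before to 50 after an annotated RefSeq start, were given for 7 of the 10 genes, in 8 windows. They were searched for the core recognised by RBPJ, TGGGAA or its reverse complement TTCCCA, which 25.56% of all 32851 such windows hold. Of the 7 genes only *Hey2* had a match, with 2 of them, where 3.79% of all windows hold 2 or more. The windows of 4 other pathway genes named below were searched too. *Rbpj* had 2 matches in the first and 1 in the second of its overlapping windows, *Hes7* had 1, and *Hes6* and *Jag2* had none. The first *Rbpj* window is shown beside that of *Hey2* because *Rbpj* encodes the factor itself and *Hey2* was the only one of the 10 genes with a match. Matches are in capitals, and each sequence runs 5′ to 3′ on the strand of its gene. *Hey2* is on the minus strand at chr10:30842734-30843033 and *Rbpj* on the plus strand at chr5:53590096-53590395.
Hey2: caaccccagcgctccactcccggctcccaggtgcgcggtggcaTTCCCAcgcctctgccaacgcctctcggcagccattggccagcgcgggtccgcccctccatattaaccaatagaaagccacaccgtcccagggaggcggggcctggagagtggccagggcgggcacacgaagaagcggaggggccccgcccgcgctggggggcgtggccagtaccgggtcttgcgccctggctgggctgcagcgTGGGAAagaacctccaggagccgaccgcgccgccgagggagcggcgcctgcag
Rbpj: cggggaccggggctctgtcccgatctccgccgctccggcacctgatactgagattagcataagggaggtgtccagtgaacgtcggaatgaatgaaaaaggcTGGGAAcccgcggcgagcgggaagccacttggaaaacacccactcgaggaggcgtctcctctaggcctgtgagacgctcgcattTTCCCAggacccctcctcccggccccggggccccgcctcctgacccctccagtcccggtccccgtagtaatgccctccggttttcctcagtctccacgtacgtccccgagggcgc
The *Hey2* matches start 207 and 3 bases before the RefSeq start of its window, and those of *Rbpj* 149 and 65 bases before its own. The *Rbpj* windows lie inside the span given for the gene below, so that their starts are internal to it. Both *Hey2* matches are part of the longer form GTGGGAA or TTCCCAC. Of all windows, 6.383% hold this form and 0.256% hold 2 or more of it. The *Hes7* match is also part of it, and those of *Rbpj* are not. A match is a description of these letters and not evidence of binding.

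Across the 10 genes, 0 passed an adjusted p under 0.05 in limma, as did 0% of the 15948 tested genes, and the limma adjusted p was 0.9999 for each of the 10. The groups overlapped in all 10, whereas 4.11% of the tested genes had groups that do not overlap, 1.98% with CharmeKO lower. No gene of the 10 had an unadjusted limma p under 0.05, the lowest being 0.0704 for *Hey1*, while 143 tested genes (0.897%) did. edgeR's quasi-likelihood test and DESeq2 also called 0 of the 10, and DESeq2 with the library number as a block called 0 of them, having given no adjusted p for *Hey1*, and 0.401% of the tested genes. In sign, 8 were lower and 2 higher in CharmeKO, against 49.6% of all tested genes lower. *Notch1* and *Notch3*, 2 of the 8 with changes near 0, turned positive with plain library sizes, and *Notch1* also in edgeR and DESeq2. The median log2 fold change was -0.19 for the 10 and 0.0022 for all tested genes. When each library was left out in turn, the sign turned in at least 1 fit for 7 of the 10, and it held for *Notch2*, *Notch4* and *Hey1*. The most negative changes of *Notch4* and *Hey1* in these fits, -1.82 and -2.24, came without CharmeKO 1, the library of its group highest in both genes. The limma adjusted p was 0.9971 for both in that fit. The SE of these changes ran from 0.178 log2 units for *Notch2* to 2.15 for *Hey2*, and differences of the size of these errors were not detectable with 3 cultures per group.

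**Figure D3:**
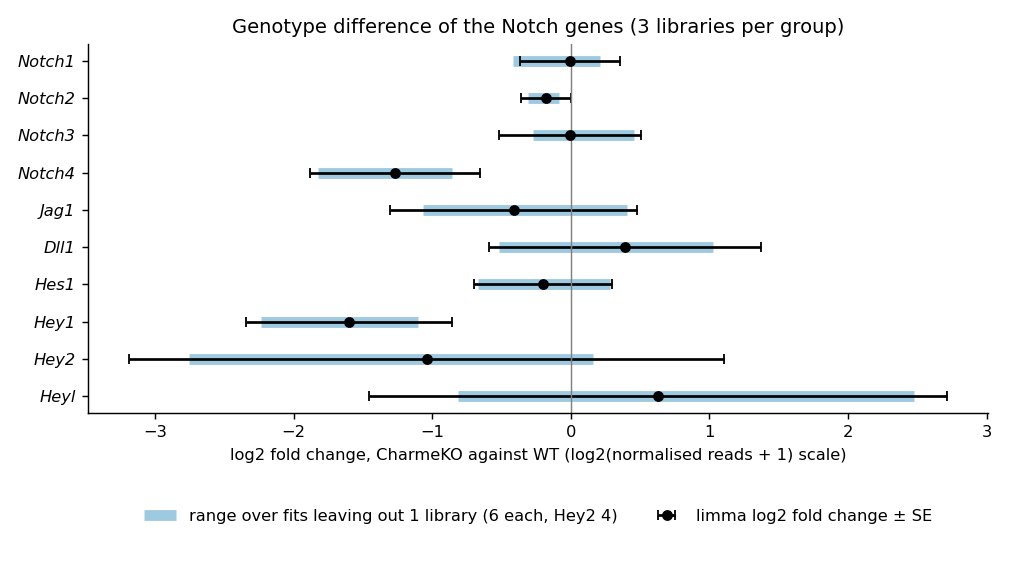
Log2 fold change of CharmeKO against WT on the log2(normalised reads + 1) scale (x axis) for the 10 genes (y axis), with the limma SE as error bars (n = 3 libraries per group) and the range over fits that leave out 1 library as blue bands. The bands of *Notch2*, *Notch4* and *Hey1* keep to the negative side, and the other 7 cross 0.

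The spread of the 10 genes over the 6 libraries was then divided between genotype and library number. The library number took more of the variance of the log2 values than the genotype in 8 of the 10 genes, with medians of 82.5% for number and 3.01% for genotype. Over all tested genes the medians were 73.8% and 5.91%. The number has more levels than the genotype, so it takes a larger share on average even where neither has an effect. The count of genes with more number than genotype is therefore not particular to these genes. The share of the number was highest for *Dll1* (92.2%), *Heyl* (88.9%), *Hes1* (87.5%) and *Jag1* (85.4%). The exceptions were *Hey1*, with 54.1% for genotype and 37.7% for number, and *Notch4*, with 45.7% for genotype and 13.7% for number. *Notch1* followed neither, with 67.3% left over. The labels do not say what same-numbered cultures share.

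**Figure D4:**
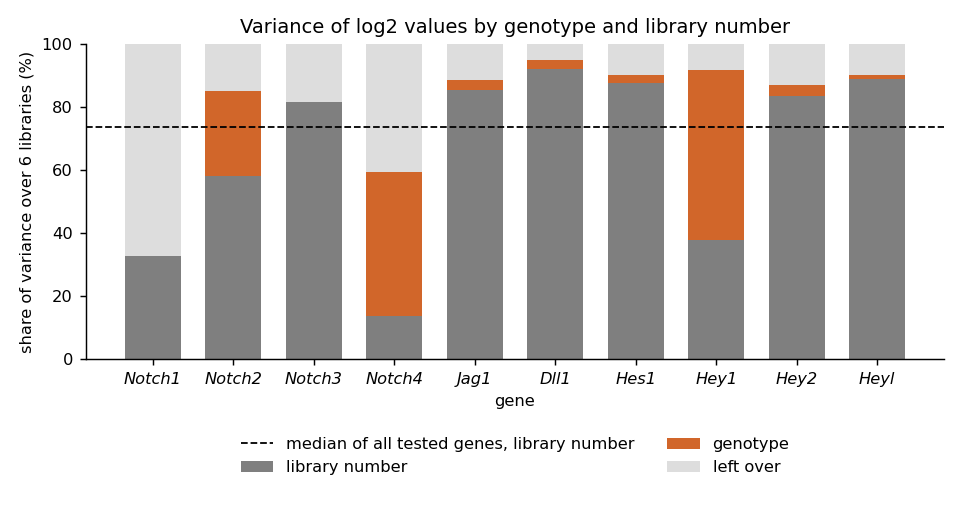
Share of the variance of log2(normalised reads + 1) over the 6 libraries (y axis, %) that goes to library number, genotype and the remainder for each of the 10 genes (x axis). The dashed line marks the median share of the number over all tested genes, 73.8%, and *Notch4* and *Hey1* are the 2 genes with more genotype (orange) than number (dark grey).

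The other genes of the pathway were taken from 5 lists of 61 genes, of which 56 had a row and 53 were tested. None passed an adjusted p under 0.05 in limma or in edgeR. By sign 22 were higher and 31 lower in CharmeKO, with a median log2 fold change of -0.022. In 2 of the 53, *Rbpj* and *Hes7*, the groups did not overlap, a share near the 4.11% of all tested genes, and the unadjusted limma p was under 0.05, as for 0.897% of all tested genes. *Hes7* passed the filter on low reads only through the group in which it was higher, so that it had to differ to be tested.

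*Rbpj*, the DNA-binding partner through which all 4 receptors act, was lower in every CharmeKO library than in every WT library. It had 7052, 8027 and 7960 normalised reads in WT 1, 2 and 3 and 5229, 5499 and 3209 in CharmeKO, with CharmeKO 3 the lowest. The log2 fold change was -0.76 (SE 0.240, limma adjusted p = 0.9999), and it lay between -0.90 and -0.52 when each library was left out in turn. The gene spans chr5:53466152-53657362 on the plus strand of GRCm38.

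*Rbpj* shares sequence with processed pseudogenes, and its level is uncertain because reads that map to several places were not counted. The pseudogene *Rbpj-ps3* (chr6:46529354-46530794, minus strand), which was looked up after the values had been seen, had 13.8, 10.7 and 4.39 normalised reads in WT and 158.6, 10.8 and 576.6 in CharmeKO 1, 2 and 3. The 2 libraries high in the pseudogene are CharmeKO 1 and CharmeKO 3. Summed with it, *Rbpj* ran from 3786 to 5509 in CharmeKO and from 7066 to 8038 in WT, a log2 difference of -0.67. The two-sided exact permutation p was 0.1, the smallest possible. That p was fixed beforehand, because the groups of *Rbpj* alone did not overlap and the pseudogene levels were too small to close the gap. The sum also cannot restore reads that mapped to several places, so the uncertainty remains.

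*Hes7*, a gene of the segmentation clock in the embryo, had 3.94, 4.27 and 4.39 normalised reads in WT and 12.5, 12.8 and 13.9 in CharmeKO, that is, 4 reads in each WT library against 13, 13 and 16. Its log2 fold change was 1.43 (SE 0.504, limma adjusted p = 0.9999), which the filter on low reads had favoured as said above. *Dtx4*, which encodes a Deltex-type ubiquitin ligase, was the gene of its list with the lowest p. It had 4007, 6378 and 1370 normalised reads in WT and 4227, 11849 and 13815 in CharmeKO. It was higher in CharmeKO in all 3 pairs, as were 16.4% of tested genes, by log2 differences of 0.077, 0.89 and 3.33, and the groups overlapped (log2 fold change 1.43, SE 0.675).

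**Figure D5:**
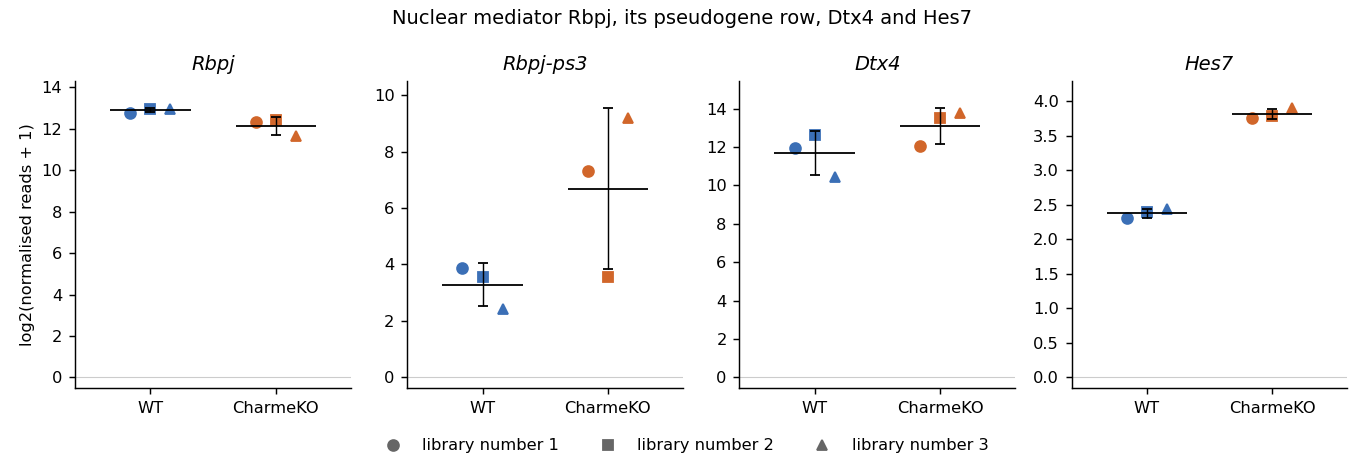
Levels of *Rbpj*, its pseudogene *Rbpj-ps3*, *Dtx4* and *Hes7* as log2(normalised reads + 1) (y axis) in WT and CharmeKO libraries (x axis), with marker shapes for the library number, lines for group means and error bars for the SD (n = 3). The *Rbpj* groups do not overlap and those of *Rbpj-ps3* and *Dtx4* do, while *Hes7*, at 4 reads in each WT library, was tested only because the CharmeKO libraries exceeded 10 reads.

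The remaining steps of the pathway were described by sign and median, none of their genes having passed the limma test. Of 17 tested genes of the nuclear complex 13 were lower and 4 higher in CharmeKO, with a median of -0.055. Over all tested genes 49.6% were lower. The 17 included the corepressors *Tle1* (log2 fold change -0.38), *Tle4* (-0.46) and *Ctbp1* (-0.027), while *Tle2* stood at -0.032 and *Tle3* at 0.19. The 10 genes of receptor cleavage had a median of 0.041, with *Psenen* and *Ncstn*, subunits of gamma-secretase, at 0.25 and 0.13 and their partner *Aph1b* at -0.16. The 18 modifiers of ligands and receptors split evenly into 9 higher and 9 lower, with the ligand-activating *Mib1* at -0.26 and the receptor glucosyltransferase *Poglut1* at 0.20. Of the other Hes genes, *Hes6* stood at 0.30 and *Bhlhe40* at -0.18. Among the 4 other ligand genes tested, *Jag2* was lower in all 3 pairs, as were 14.0% of tested genes. It had 22.4 ± 17.0 normalised reads in WT against 10.1 ± 7.03 in CharmeKO (SD, n = 3 each, log2 fold change -0.99), and the groups overlapped. *Dlk1*, *Dlk2* and *Dner* stood at 0.34, -0.0020 and -0.019. The Delta genes *Dll3* and *Dll4* were too low to be tested.

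Markers of other cells in which Notch genes are known to act were compared beside these values. Of the 11 mural cell markers, 10 were lower in CharmeKO and 8 were lower in all 3 pairs, with a median log2 fold change of -1.60. Over all tested genes, 49.6% were lower and 14.0% were lower in all 3 pairs. *Kcnj8* and *Abcc9*, both among the 8, passed the filter on low reads only through WT, so that they had to be lower to be tested. No marker of the 11 passed the limma test with or without the block. DESeq2 with the block, which called 0.401% of tested genes, called 1 of the 11, *Myh11*, a smooth muscle myosin (DESeq2 adjusted p = 0.000603). Their sum, most of it from *Acta2*, *Tagln* and *Pdgfrb*, which myofibroblasts also express, was 167154, 54805 and 260203 normalised reads in WT 1, 2 and 3 and 155529, 30912 and 56139 in CharmeKO. *Notch4* was highest in WT 3, where this sum was the highest of all 6, and *Notch3* was highest in WT 2, where it was the lowest of WT. The pericyte markers *Rgs5*, *Kcnj8* and *Abcc9* ran differently from the sum and were highest in WT 2, as *Notch3* was. Within CharmeKO, however, *Abcc9* was highest in CharmeKO 1. The mural markers *Cspg4* and *Mcam* were instead highest in WT 3. *Cspg4* had 450, 676 and 3663 normalised reads in WT 1, 2 and 3 and 241, 105 and 25.2 in CharmeKO. Its groups did not overlap, as for 4.11% of tested genes (log2 fold change -3.56, limma adjusted p = 0.9999). *Rgs5* had 45.3, 997 and 51.6 normalised reads in WT 1, 2 and 3 and 30.8, 201 and 75.7 in CharmeKO, *Kcnj8* reached 66.2 in WT 2, and *Abcc9* reached 18.2 there and was at 0 in CharmeKO 3. The 8 of 11 endothelial markers with a row summed to 2710 to 3977 in WT and 1254 to 5749 in CharmeKO, mostly from *Flt1*. The defining endothelial genes were low or at 0, *Cdh5* having 44.3, 0 and 2.20 normalised reads in WT and 33.7, 25.6 and 0 in CharmeKO, and *Pecam1* and *Erg* being too low to be tested. Cardiomyocyte markers summed to 72.5 to 581 in WT and 132 to 764 in CharmeKO. The part of these cells in the *Notch3*, *Notch4* and *Hey1* values was not tested.

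The positions of the receptor genes on GRCm38 are chr2:26457903-26516663 (minus strand) for *Notch1*, chr3:98013527-98150361 (plus) for *Notch2*, chr17:32120820-32166852 (minus) for *Notch3* and chr17:34564268-34588503 (plus) for *Notch4*. The ligand genes are at chr2:137081456-137116644 (minus) for *Jag1* and chr17:15367354-15376872 (minus) for *Dll1*. The targets are at chr16:30064384-30067796 (plus) for *Hes1*, chr3:8663359-8667256 (minus) for *Hey1*, chr10:30832359-30842801 (minus) for *Hey2* and chr4:123233556-123249875 (plus) for *Heyl*. Exons of *Notch2* overlap those of *Gm42820* on the same strand, and reads in the overlap were not counted for either. All are protein-coding genes, and the reads were counted over their exons.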

How the data were processed

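Total RNA of the cultures had been made into strand-specific poly(A) libraries by the authors, aligned with STAR, counted per gene on the reverse strand with reads of several places or genes left out, filtered for low counts and normalised with DESeq2 (versions not given in the sources used here). The deposited signal is the read count divided by a size factor for each library, and 100% of 116676 values came out as whole reads (tolerance 0.01). The study's methods name the mouse build GRCm39. The table gives no coordinates, and those printed here, like exon lengths for RPKM, are GENCODE's for GRCm38, matched by Ensembl ID.

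Groups and numbers came from the sample titles. limma 3.58.1 in R 4.3.3, with a mean-variance trend, was fitted on log2(value + 1) with no term but genotype, two-sided, over the 15948 genes that reached 10 reads in 2 or more libraries, with Benjamini-Hochberg adjustment and a threshold of 0.05. Fold changes on this scale understate those of rare genes. edgeR 4.0.16 and DESeq2 1.42.0 on the recovered reads, other scalings, pseudocounts of 0.5 and 5, other filters, a block of the library number and leaving out each library were alternatives. Single values used exact permutation tests. limma, edgeR and DESeq2, each with and without the block, were tested on simulated reads that held no effect of the library number. The other alternatives were not tested in this way. Figures were drawn with matplotlib 3.10.9. The study describes its experiments as made on independent primary cell isolations, but the labels do not tie these libraries to animals, so p-values measure the spread between these cultures.

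The numbers were taken to pair the libraries because across genes, the departures of a WT library and of the CharmeKO library with its number from their groups' means had correlations of 0.762 (number 1), 0.514 (number 2) and 0.217 (number 3). Each is over 0.1, while libraries of unequal number gave -0.643 to 0.222. Departures within a group cancel out for each gene, so a positive correlation of equal numbers by itself lowers those of unequal numbers. CharmeKO 3 correlated with WT 2 (0.222) about as much as with WT 3 (0.217), so pair 3 is the least sure. The genes, pathway lists and marker lists were chosen with earlier results of these data known. Besides the 10 genes, those named are up to 3 of each pathway list with the lowest p and the 1 with the highest level, and up to 3 of each marker list with the highest level. *Rbpj-ps3*, *Tle2*, *Tle3*, *Rgs5*, *Kcnj8*, *Abcc9*, *Cspg4*, *Mcam*, *Myh11*, *Cdh5*, *Pecam1*, *Erg*, *Msln*, *Krt18* and *Krt19* were added after the values had been seen. Native CFs were not analysed here.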

Additional observations from a re-analysis of the deposited data

How the results depend on the processing

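The 10 genes and the 53 other pathway genes gave 0 calls in all 17 alternatives each. Over all genes limma called 0, with 143 under an unadjusted p of 0.05, and 15 of 17 alternatives also called 0, while DESeq2 called 8 (2 higher and 6 lower) and DESeq2 with the replicate block 64 (26 higher and 38 lower). With the block in limma, the adjusted p of *Hey1* was 0.7997 and 857 genes had an unadjusted p under 0.05, and the block changed no call in limma or edgeR. The changes that turned sign outside the fits leaving out a library were all close to 0 in the main limma fit. *Notch1* turned to 0.12 in edgeR, 0.11 in DESeq2, 0.11 with DESeq2 size factors in edgeR and 0.027 with plain library sizes, and *Notch3* to 0.030 and *Ctbp1* to 0.0072 with plain library sizes. *Dner* turned to 0.25 in edgeR, DESeq2 and edgeR with DESeq2 size factors, to 0.011 with plain library sizes, 0.020 with a pseudocount of 5, 0.031 in edgeR with the block and 0.0066 in DESeq2 with the block. *Dlk2* turned to 0.10 in edgeR, 0.092 in DESeq2, 0.092 with DESeq2 size factors in edgeR, 0.032 with plain library sizes, 0.00034 with a pseudocount of 5 and 0.0041 in edgeR with the block. The cause was not tested. Leaving out each library gave log2 fold changes of -0.42 to 0.21 for *Notch1*, -0.31 to -0.084 for *Notch2*, -0.27 to 0.46 for *Notch3*, -1.82 to -0.86 for *Notch4*, -1.07 to 0.41 for *Jag1*, -0.52 to 1.03 for *Dll1*, -0.67 to 0.28 for *Hes1*, -2.24 to -1.11 for *Hey1*, -2.76 to 0.16 for *Hey2* and -0.82 to 2.48 for *Heyl*. For *Hey2* the fits without WT 1 and without CharmeKO 1 gave no value, as it then had too few reads to be tested, and *Hes7* gave none with a minimum mean of 10 reads. The ranges were -0.50 to 1.06 for *Dlk1*, -0.77 to 0.50 for *Dner*, -0.59 to 0.58 for *Dlk2*, -0.15 to 0.10 for *Ctbp1*, -0.51 to 0.35 for *Bhlhe40*, 0.81 to 1.97 for *Dtx4* and 1.39 to 1.46 for *Hes7*, and -0.057 to 0.57 for the log2 ratio of *Notch3* to *Notch2*. Summing *Rbpj* with *Rbpj-ps3*, an alternative chosen after seeing the data, gave -0.67. At these depths *Dll1*, *Hey1*, *Hey2*, *Heyl* and *Hes7* rest on few reads.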
